A study of Homo sapiens with 7 samples.

Results

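The genes described here are 47 neighbours on the long arm of human chromosome 14, bands 14q11-q12, listed in chromosome order from SLC7A8 to NUBPL. They were chosen by their measured RNA signal: as a block they were higher in sublines of the prostate cancer line PC-3 that had not passed through TEM4-18 than in TEM4-18 itself. That difference is therefore given below as a description, with no test. Of the 47 listed genes, 35 could be followed on a probe set of their own that passed a filter on low signal, among 13618 genes tested in the whole series. A further 5 (EFS, TGM1, CIDEB, ADCY4 and NYNRIN) fell under the filter, 4 (JPH4, DHRS4, PSME2 and MDP1) were measured only by probe sets that also name another gene, and 3 (TM9SF1, CHMP4A and GMPR2) had no probe set listed under their symbol. Counts over the 35 tested genes are thus not counts over all the listed genes.

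The series holds 7 Affymetrix arrays of total RNA from luciferase-expressing lines that all descend from PC-3, an established line from a bone metastasis of prostate cancer. All cultures were untreated and grown in DMEM/F12 medium with 10% serum. TEM4-18, with 2 arrays, is PC-3 selected in culture for crossing a layer of human lung microvascular endothelial cells. The other lines were recovered from organs of mice after intravenous injection, and each is a single subline with 1 array. GS672.Ug came from the urogenital tract after injection of PC-3. GS689.Li came from the liver and GS694.LAd from the left adrenal, both after injection of JD549.Ki, a kidney subline of PC-3. These 3 are called the PC-3-descended sublines here. GS683.LALN, from the left axillary lymph node, and JD1203.Lu, from the lung, were grown from TEM4-18 and are called the TEM4-18-descended sublines. Neither the parental line nor JD549.Ki was analysed here. Higher RNA in the PC-3-descended sublines and lower RNA on the way to TEM4-18 therefore cannot be told apart.

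The labels conflict in 4 places. JD1203.Lu carries JD549.Ki as its source name although TEM4-18 is the parent in its description, so the results for the TEM4-18-descended sublines are given with and without it. The design text places GS683.LALN in the lung, the description of GS694.LAd calls it JD549.Ki, and the description of GS689.Li lacks the name. Nothing says that the TEM4-18 duplicates came from separate cultures, so their spread may be technical. Signals are linear MAS5 intensities scaled by the authors to a common trimmed mean of 1500.2, with array medians between 239.08 and 297.25. The number of arrays limits the precision. The 8 markers that fit PC-3, among them VIM and KRT18, lay between 2775 and 81724 on every array, while the 4 leukocyte markers lay between 13.5 and 349 and 2 of them passed the filter. CTNNA1, the alpha-catenin gene known to be deleted in PC-3, lay between 105 and 479 and also passed the filter. Passing the filter therefore does not by itself show that a gene is expressed. Of markers of other cells, 3 of 7 for endothelium, 3 of 6 for fibroblasts and 3 of 5 for prostate luminal cells passed the filter. The brightest of them were the collagen gene COL1A1, at 3071 to 30752, KDR, up to 6380, and ESAM, up to 2489. Their part in the results was not tested. In RNA from whole cultures, more cells with a transcript and more transcript per cell cannot be told apart.

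The interval is gene-dense and mixes unrelated functions. It holds the paired genes PSME1 and PSME2, whose products form the PA28 proteasome activator that interferon induces for antigen processing. It also holds IRF9, the DNA-binding subunit of the interferon-activated ISGF3 complex, and RIPK3, the kinase that starts necroptosis. NEDD8, the ubiquitin-like protein that activates cullin ligases, and TINF2, a telomere-binding shelterin subunit, are essential in most cells, whereas REC8, NOVA1 and COCH have specialised roles in meiosis, neuronal splicing and the inner ear.

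Along the chromosome, 33 of the 35 tested genes were higher in the PC-3-descended sublines than in TEM4-18, and SLC22A17 and NUBPL were lower. Differences are on the scale log2(signal + 46.942), where the offset steadies low signals and makes changes of low genes look smaller. The median difference was 0.98, which is 1.97-fold, with quartiles of 0.60 and 1.12, or 1.52-fold and 2.18-fold. The median over all 13618 genes was 0.05. Centring each array on its median moved that background by more than 0.1, to -0.14, and moved the block median to 0.78. On 30 of the 35 all 3 PC-3-descended arrays lay above both TEM4-18 arrays, against 23.6% of all genes. On 25 they lay above all 4 arrays of TEM4-18 and its descendants, against 11.2%. The rule used this contrast, so these shares only describe the choice.

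**Figure D1:**
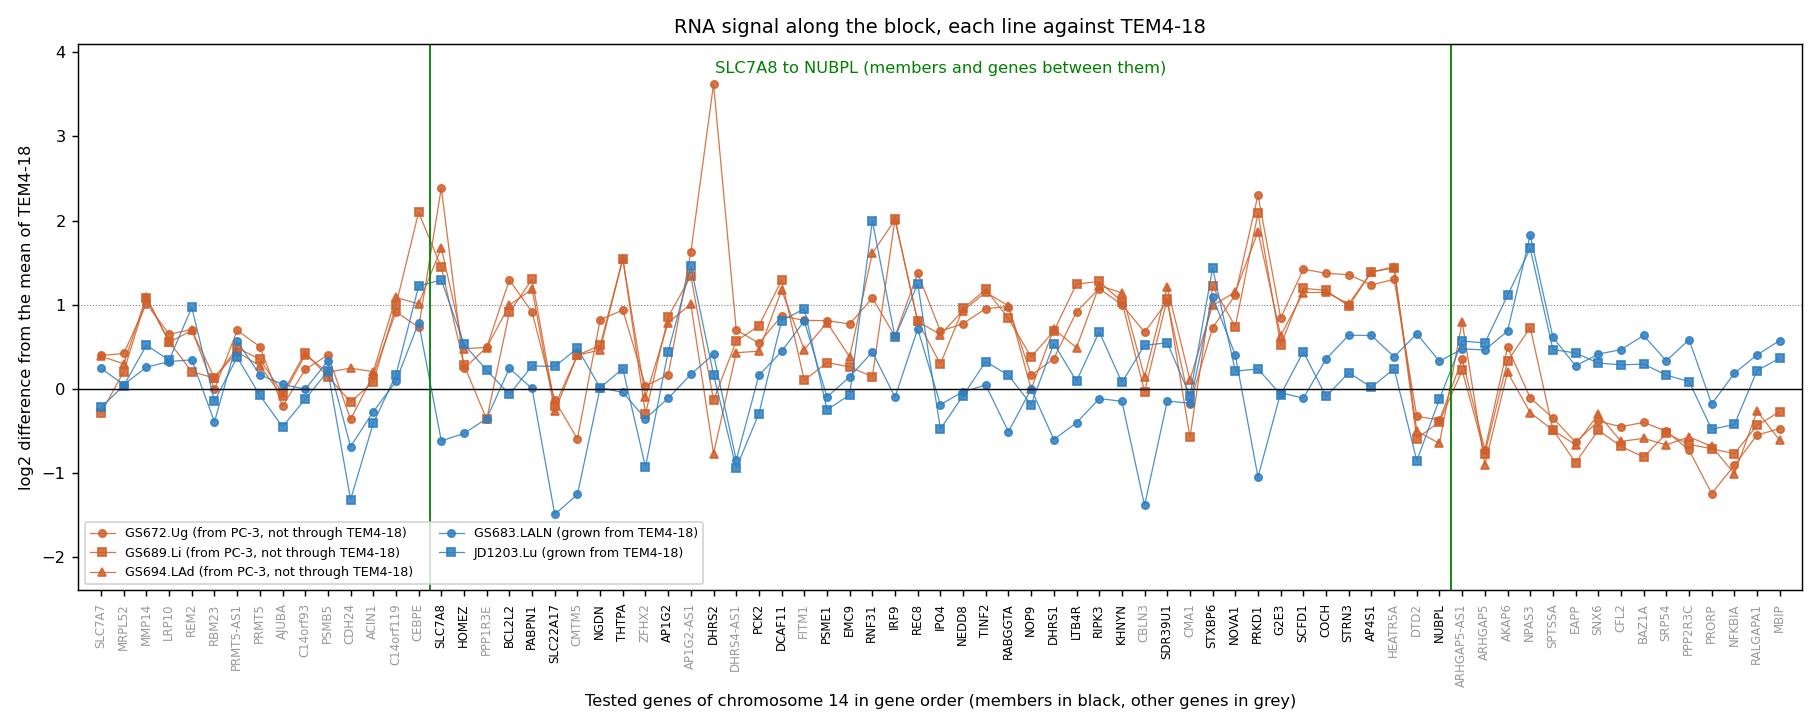
Log2 difference of each subline from the mean of the TEM4-18 arrays (vertical axis) for tested genes of chromosome 14 in gene order (horizontal axis, not to genomic scale), with orange for the PC-3-descended and blue for the TEM4-18-descended sublines. Between the green lines the orange points lie mostly between 0 and 2, and to the right of NUBPL most of them lie below 0.

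The 3 lines showed the block to a like extent. The median difference from TEM4-18 over the 35 genes was 0.92 for GS672.Ug, 0.91 for GS689.Li and 0.99 for GS694.LAd, where the medians over all genes were 0.04, 0.07 and 0.06. On the GS672.Ug array 14 of the 35 were at least 2-fold above the mean of the TEM4-18 arrays and above both, against 5.65% of all genes. The corresponding number was 15 for GS689.Li, against 7.28%, and 16 for GS694.LAd, against 7.44%. The TEM4-18-descended lines had lower medians. Their arrays were not used to choose the genes, so this gap only describes the choice. GS683.LALN had a median of -0.04 with 1 gene 2-fold higher, against 2.37% of all genes, and JD1203.Lu had a median of 0.21 with 4, against 4.35%. Above TEM4-18 to any extent were 16 of the 35 in GS683.LALN, against 51.2% of all genes, and 25 in JD1203.Lu, against 53.7%. No listed gene that was tested differed 2-fold between the TEM4-18 duplicates, whose largest gap was 0.67 and median gap 0.08.

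**Figure D2:**
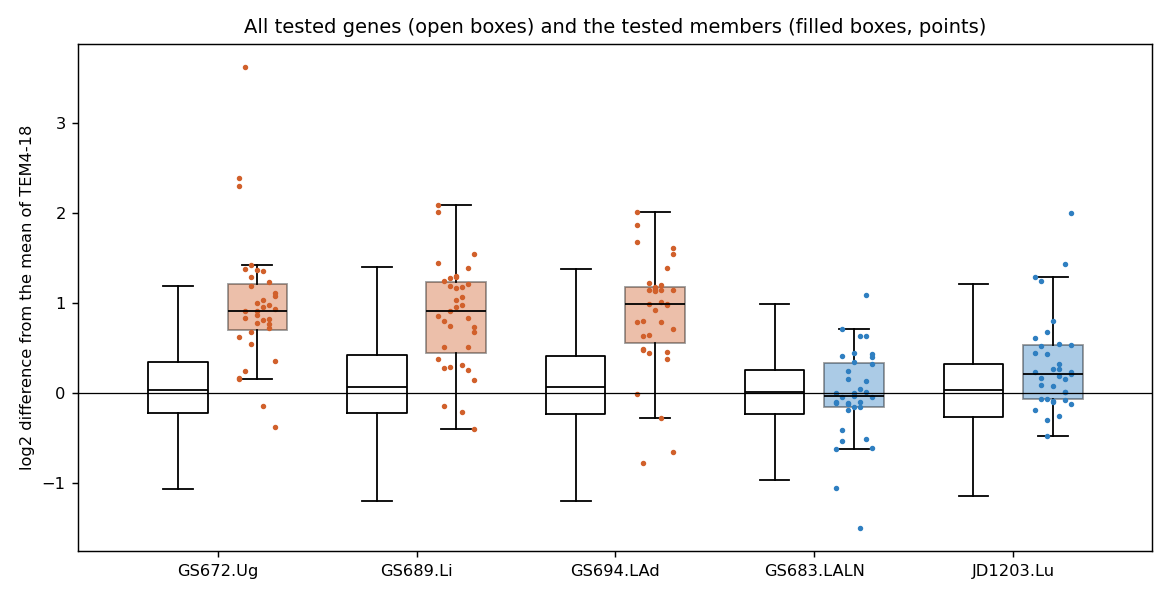
Log2 difference from the mean of the TEM4-18 arrays in each subline, as boxes (median and quartiles, whiskers to 1.5 times the interquartile range) for all tested genes (open, outliers not drawn) and for the tested 14q11-q12 genes (filled, with a point for each gene). The filled medians are 0.92, 0.91 and 0.99 in the PC-3-descended sublines, and -0.04 and 0.21 in GS683.LALN and JD1203.Lu.

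Motifs of interferon signalling were looked for in the promoters, since interferon is known to induce PSME1, PSME2 and IRF9. Promoter windows of 250 bases before to 50 after the transcription start came from RefSeq (GRCh38.p14), which held 68 windows for 43 of the 47 genes and none here for RIPK3, TGM1, BCL2L2 and TM9SF1. The interferon-stimulated response element was searched on both strands as GAAA, any 2 bases, GAAA, and the gamma-activated site as TTC, any 3 bases, GAA. The first is bound by ISGF3 and other IRF proteins. The response element occurred in 3.57% of all 35116 windows and in 3 of the 68, 1 each for PSME1, PSME2 and RNF31. The gamma-activated site occurred in 7.66% of all windows and in 6 of the 68, 1 each for THTPA, DHRS2, IRF9, ADCY4, KHNYN and AP4S1. A match to the first does not imply a match to the second. Such matches are descriptions of letters and not evidence of binding. The stretches around the matches of PSME1, PSME2 and IRF9 are shown because these 3 genes encode the interferon-linked products of the block. Capitals mark the match, each on its gene's strand, 5′ to 3′. PSME1 lies at chr14:24136182-24136211 on the plus strand, with the match from base 6 to 15 after the start, in reverse orientation. PSME2 lies at chr14:24146611-24146710 on the minus strand, with the match 28 to 19 bases before the start. IRF9 lies at chr14:24161165-24161264 on the plus strand, with the match 63 to 55 bases before the start.
PSME1: tgcgagcgccctaccgcTTTCGCTTTCcct
PSME2: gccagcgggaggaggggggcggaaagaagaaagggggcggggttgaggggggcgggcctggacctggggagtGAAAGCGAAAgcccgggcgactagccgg
IRF9: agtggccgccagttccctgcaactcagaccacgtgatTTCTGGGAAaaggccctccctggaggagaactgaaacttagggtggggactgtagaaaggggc

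PSME1, which encodes PA28 alpha, had signals of 6006 and 5918 on the TEM4-18 arrays, 5565 in GS683.LALN, 5001 in JD1203.Lu, 10484 in GS672.Ug, 10323 in GS694.LAd and 7407 in GS689.Li. The PC-3-descended arrays were all higher than the other 4, with GS689.Li the lowest of them, and the difference from TEM4-18 was 0.64 ± 0.18 (SE, 3 arrays against 2), or 1.55-fold. PSME2, which encodes PA28 beta, was measured by a probe set that also lists the microRNA gene MIR7703. It read 12493 and 12670 in TEM4-18, 12739 in GS683.LALN, 9275 in JD1203.Lu, 21368 in GS672.Ug, 20487 in GS694.LAd and 15815 in GS689.Li, a difference of 0.60. The order of the 3 PC-3-descended lines and the low JD1203.Lu value were thus shared by the PSME1 and PSME2 probe sets.

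IRF9 had signals of 921 and 792 in TEM4-18, 793 in GS683.LALN, 1329 in JD1203.Lu, 1341 in GS672.Ug, 3584 in GS694.LAd and 3603 in GS689.Li. The pair descended from JD549.Ki stood high, while GS672.Ug was barely above JD1203.Lu. The difference from TEM4-18 was 1.55 ± 0.42 (SE), the third largest among the probe sets that stand for the tested genes. A probe set that lists both RNF31 and IRF9 gave another pattern, with 858 in GS672.Ug, 1030.0 in GS694.LAd and 1072 in GS689.Li against 400.3 and 549 in TEM4-18. RNF31, the catalytic subunit of the linear ubiquitin ligase LUBAC, read 70.9 and 70.6 in TEM4-18, 112 in GS683.LALN, 423 in JD1203.Lu, 202 in GS672.Ug, 312.5 in GS694.LAd and 83.0 in GS689.Li on its own probe set. These low signals overlapped between the lineages, and the highest array was JD1203.Lu.

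RIPK3 had signals of 343 and 272 in TEM4-18, 278 in GS683.LALN, 517 in JD1203.Lu, 757 in GS672.Ug, 778 in GS694.LAd and 806 in GS689.Li. All 3 PC-3-descended arrays exceeded the other 4, and the difference from TEM4-18 was 1.23 ± 0.30 (SE), or 2.35-fold. BCL2L2, the anti-apoptotic protein BCL-W, had signals of 1356 and 1414 in TEM4-18, 1645 in GS683.LALN, 1319 in JD1203.Lu, 3465 in GS672.Ug, 2803 in GS694.LAd and 2639 in GS689.Li. Its difference was 1.07 ± 0.19 (SE), but a second BCL2L2 probe set, at 404 to 702 in TEM4-18 and the PC-3-descended sublines, gave only 0.23. CIDEB, a lipid droplet protein of the CIDE family, read between 39.2 and 191 and was not tested.

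**Figure D3:**
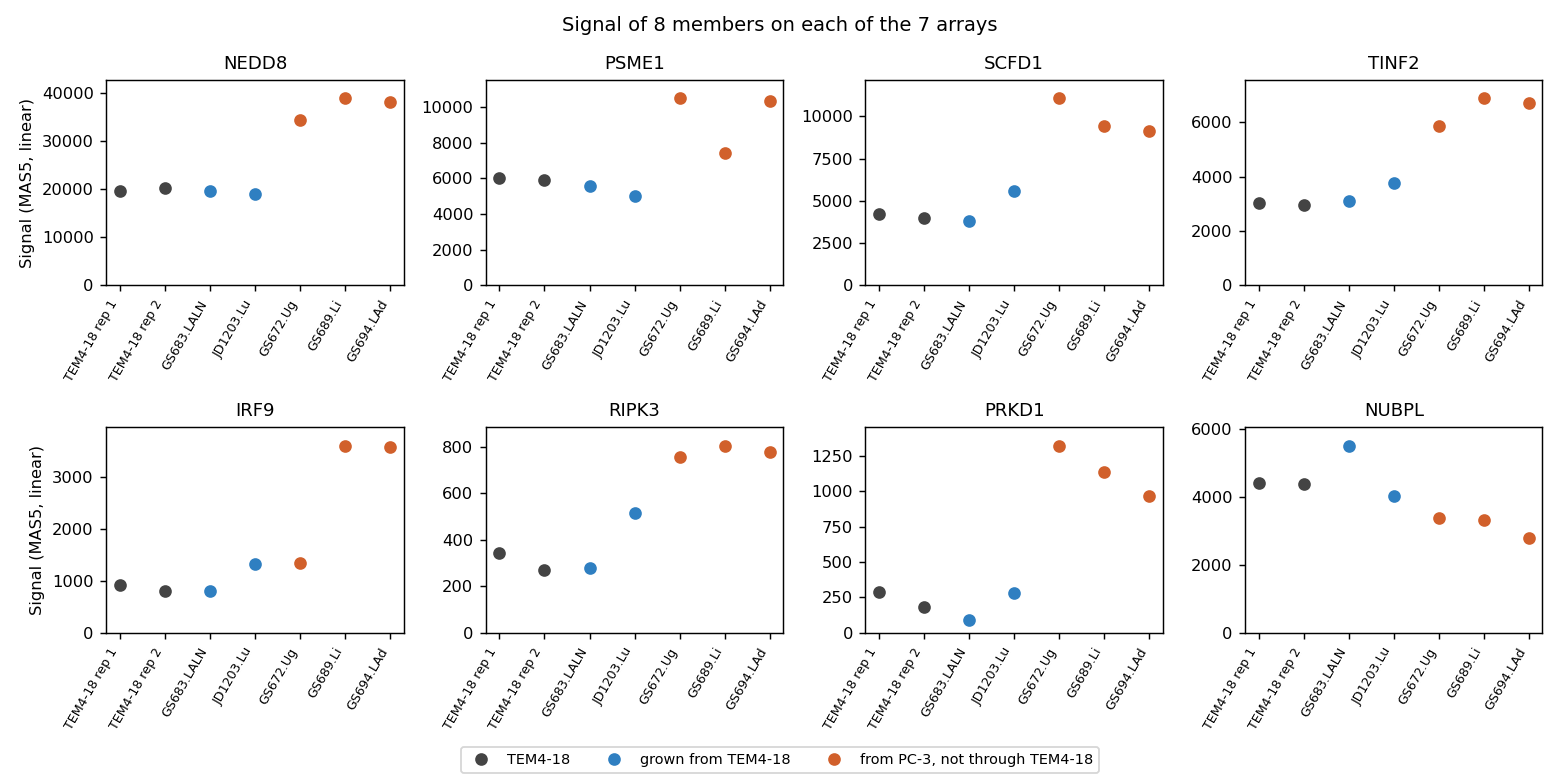
MAS5 signal (linear vertical axes, each from 0) of NEDD8, PSME1, SCFD1, TINF2, IRF9, RIPK3, PRKD1 and NUBPL on each of the 7 arrays (horizontal axis), 1 point per array. The 3 orange PC-3-descended points lie above the other 4 in every panel except NUBPL, where they lie below them, and in IRF9 GS672.Ug lies far below GS689.Li and GS694.LAd.

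Among genes of protein modification and turnover, NEDD8 had signals of 19778 and 20385 in TEM4-18, 19596 in GS683.LALN, 18960 in JD1203.Lu, 34388 in GS672.Ug, 38279 in GS694.LAd and 38949 in GS689.Li. The 4 arrays of the TEM4-18 lineage lay close together, and the PC-3-descended arrays lay well above them by 0.89 ± 0.11 (SE), or 1.85-fold, the smallest SE of the block. The neighbouring MDP1, a phosphatase gene whose probe sets also list a NEDD8-MDP1 read-through transcript, gave 0.56 and 0.31 on its 2 shared probe sets. DCAF11, a substrate receptor of CUL4 ligases, differed by 1.11 ± 0.22 (SE) and G2E3, a ubiquitin ligase, by 0.66 ± 0.16 (SE). RABGGTA, the alpha subunit of the enzyme that prenylates RAB proteins, differed by 0.93 ± 0.24 (SE).

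TINF2 had signals of 3040 and 2970 in TEM4-18, 3095 in GS683.LALN, 3771 in JD1203.Lu, 5860.5 in GS672.Ug, 6710.4 in GS694.LAd and 6868 in GS689.Li. The groups did not overlap, with a difference of 1.09 ± 0.16 (SE), and further TINF2 probe sets gave 0.75 and 0.88. REC8, the meiotic cohesin subunit, read 237 and 211 in TEM4-18, 396 in GS683.LALN, 596 in JD1203.Lu, 654 in GS672.Ug and 424 in both GS689.Li and GS694.LAd. JD1203.Lu thus lay above 2 of the 3 PC-3-descended arrays. PABPN1, which binds the poly(A) tail in the nucleus, had signals of 999 and 960.2 in TEM4-18, 981 in GS683.LALN, 1191 in JD1203.Lu, 1882 in GS672.Ug, 2285 in GS694.LAd and 2483 in GS689.Li. The PABPN1 difference was 1.13 ± 0.20 (SE), while 2 probe sets shared with the BCL2L2-PABPN1 read-through gene gave 0.40 and 0.23. Of the genes of ribosome assembly, NGDN differed by 0.60 ± 0.15 (SE) and NOP9 by 0.18 ± 0.20 (SE). Second probe sets above the filter gave 0.24 for NGDN and -0.05 for NOP9. On the probe sets that stand for the genes NOP9 was the smallest difference above 0, with 1099 and 1320 in TEM4-18, 1202 in GS683.LALN, 1052 in JD1203.Lu, 1352 in GS672.Ug, 1200.5 in GS694.LAd and 1579 in GS689.Li, and after median centring it was -0.02. HOMEZ, a homeobox gene, differed by 0.33 ± 0.45 (SE) and IPO4, a nuclear import receptor, by 0.54 ± 0.19 (SE). KHNYN, a cofactor of the antiviral protein ZAP, differed by 1.06 ± 0.17 (SE).

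The tested genes of membrane traffic were all higher in the PC-3-descended sublines on their main probe sets, with different sizes. SCFD1, which acts in fusion of vesicles between endoplasmic reticulum and Golgi, had signals of 4202 and 3998 in TEM4-18, 3787 in GS683.LALN, 5577 in JD1203.Lu, 11062 in GS672.Ug, 9110.1 in GS694.LAd and 9438 in GS689.Li. That was 1.25 ± 0.19 (SE), or 2.38-fold, with no overlap, although a dim second probe set gave 0.13. AP4S1, a subunit of the AP-4 adaptor, differed by 1.34 ± 0.24 (SE) and by 1.35, 0.51 and 1.16 on its further probe sets. AP1G2, of the AP-1 adaptor, differed by 0.60 ± 0.27 (SE), and GS672.Ug at 1852 lay between the TEM4-18 arrays at 1412 and 1922. EMC9, of the membrane protein insertase EMC, differed by 0.47 ± 0.19 (SE).

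STXBP6, which binds SNARE proteins, read 106 and 102 in TEM4-18, 275 in GS683.LALN, 362 in JD1203.Lu, 203 in GS672.Ug, 253 in GS694.LAd and 304 in GS689.Li. On this probe set every subline, of either lineage, was above TEM4-18. Its further probe sets, all dim and under the filter, gave -0.09, -0.02 and -0.11 for the PC-3-descended sublines against TEM4-18. SLC7A8, a transporter of neutral amino acids, had signals of 282 and 275 in TEM4-18, 164 in GS683.LALN, 749 in JD1203.Lu, 1653 in GS672.Ug, 990.1 in GS694.LAd and 837 in GS689.Li. Its difference was 1.84 ± 0.51 (SE), further probe sets above the filter gave 1.73 and 2.29, and JD1203.Lu came close to GS689.Li. SLC22A17, a lipocalin receptor, read 392 and 296 in TEM4-18, 90.7 in GS683.LALN, 419 in JD1203.Lu, 305 in GS672.Ug, 275 in GS694.LAd and 290.1 in GS689.Li. Its difference of -0.20 ± 0.49 (SE) was smaller than its SE, to which the gap between GS683.LALN and JD1203.Lu also contributed. JPH4, a junctophilin, shares its probe set with AP1G2, at 40.2 to 171, under the filter. EFS, a signalling scaffold, read between 14.5 and 215.

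Of the metabolic genes, DHRS2, a short-chain dehydrogenase, had signals of 514 and 307 in TEM4-18, 545 in GS683.LALN, 453 in JD1203.Lu, 5441 in GS672.Ug, 214 in GS694.LAd and 358 in GS689.Li. GS672.Ug stood alone, and GS689.Li and GS694.LAd were not above TEM4-18. DHRS4, measured by a probe set it shares with its copy DHRS4L2, read 2349 and 2498 in TEM4-18, 2031 in GS683.LALN, 2793 in JD1203.Lu, 3704 in GS672.Ug, 2999 in GS694.LAd and 3242 in GS689.Li. The copies cannot be separated there, and the difference was 0.44. PCK2, the mitochondrial phosphoenolpyruvate carboxykinase, read 675 and 547 in TEM4-18, 685 in GS683.LALN, 487 in JD1203.Lu, 907 in GS672.Ug, 846 in GS694.LAd and 1054 in GS689.Li. All PC-3-descended arrays were higher, by 0.58 ± 0.24 (SE). DHRS1 differed by 0.58 ± 0.30 (SE), SDR39U1, of the same enzyme family, by 2.15-fold, and THTPA, a thiamine triphosphatase, by 1.34 ± 0.25 (SE). NUBPL, which assembles iron-sulfur clusters of complex I and ends the block, read 4415 and 4373 in TEM4-18, 5522 in GS683.LALN, 4033 in JD1203.Lu, 3386 in GS672.Ug, 2783 in GS694.LAd and 3337 in GS689.Li. Here the PC-3-descended arrays were the 3 lowest, with a difference of -0.47 ± 0.18 (SE).

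Among signalling and tissue-restricted genes, PRKD1, a serine/threonine kinase downstream of diacylglycerol, gave the largest difference on the probe sets that stand for the genes, 2.09 ± 0.40 (SE), or 4.25-fold. Further probe sets of SLC7A8 and COCH gave larger ones. The PRKD1 signals were 286 and 184 in TEM4-18, 87.0 in GS683.LALN, 279 in JD1203.Lu, 1324 in GS672.Ug, 965 in GS694.LAd and 1134.5 in GS689.Li, so that the groups were far apart. A dim second PRKD1 probe set, under the filter, gave -0.04. STRN3, a scaffold of STRIPAK phosphatase complexes, had signals of 2222 and 2508 in TEM4-18, 3694 in GS683.LALN, 2701 in JD1203.Lu, 6114 in GS672.Ug, 4801 in GS694.LAd and 4709 in GS689.Li. The difference was 1.12 ± 0.20 (SE), with GS683.LALN between the lineages. NOVA1 had signals of 1246 and 1266 in TEM4-18, 1672 in GS683.LALN, 1460 in JD1203.Lu, 2775 in GS672.Ug, 2843 in GS694.LAd and 2127 in GS689.Li. The 3 PC-3-descended arrays were again the highest, by 1.00 ± 0.19 (SE). LTB4R, a leukotriene B4 receptor, differed by 0.88 ± 0.34 (SE) and by 1.07 and 0.88 on further probe sets. ADCY4, an adenylate cyclase, read between 41.0 and 207, TGM1, a transglutaminase of skin, between 22.8 and 198, and NYNRIN between 14.9 and 272.

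COCH, the cochlin gene, had signals of 4400 and 4167 in TEM4-18, 5478 in GS683.LALN, 4014 in JD1203.Lu, 11160 in GS672.Ug, 9530 in GS694.LAd and 9685 in GS689.Li on the probe set with the highest mean, a difference of 1.23 ± 0.17 (SE). The remaining 2 COCH probe sets differed far more. On the first, TEM4-18 read 11.4 and 114, GS683.LALN 70.6 and JD1203.Lu 14.7, while GS672.Ug read 1311, GS689.Li 1427 and GS694.LAd 1223, a difference of 3.81. The second gave 4.06, with 38.0 and 206 in TEM4-18, 132 in GS683.LALN, 12.6 in JD1203.Lu, 2495 in GS672.Ug, 2315 in GS694.LAd and 2411 in GS689.Li. On both of them JD1203.Lu lay with TEM4-18 and GS683.LALN and not with the sublines of JD549.Ki, the line its source name gives. On REC8, RNF31 and STXBP6, however, it lay above both sublines of JD549.Ki, and its parent was not tested. Averaging the COCH probe sets gave 3.04. Over the block, 24 further probe sets of 15 genes passed the filter, and 22 of them were higher in the PC-3-descended sublines, with a median of 0.87. Of 12 dim ones under the filter, 5 were higher, with a median of -0.01. These counts use the contrast that chose the genes, so they are descriptions and not independent support. The filter used the mean over all arrays, so high signals in the PC-3-descended sublines alone could carry a probe set past it. The share that was higher among passing and dim probe sets therefore cannot be compared, and how far the filter shaped it was not tested. The 18 genes with every signal over 1000 had 17 higher and a median of 0.77, from -0.47 to 1.25.

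**Figure D4:**
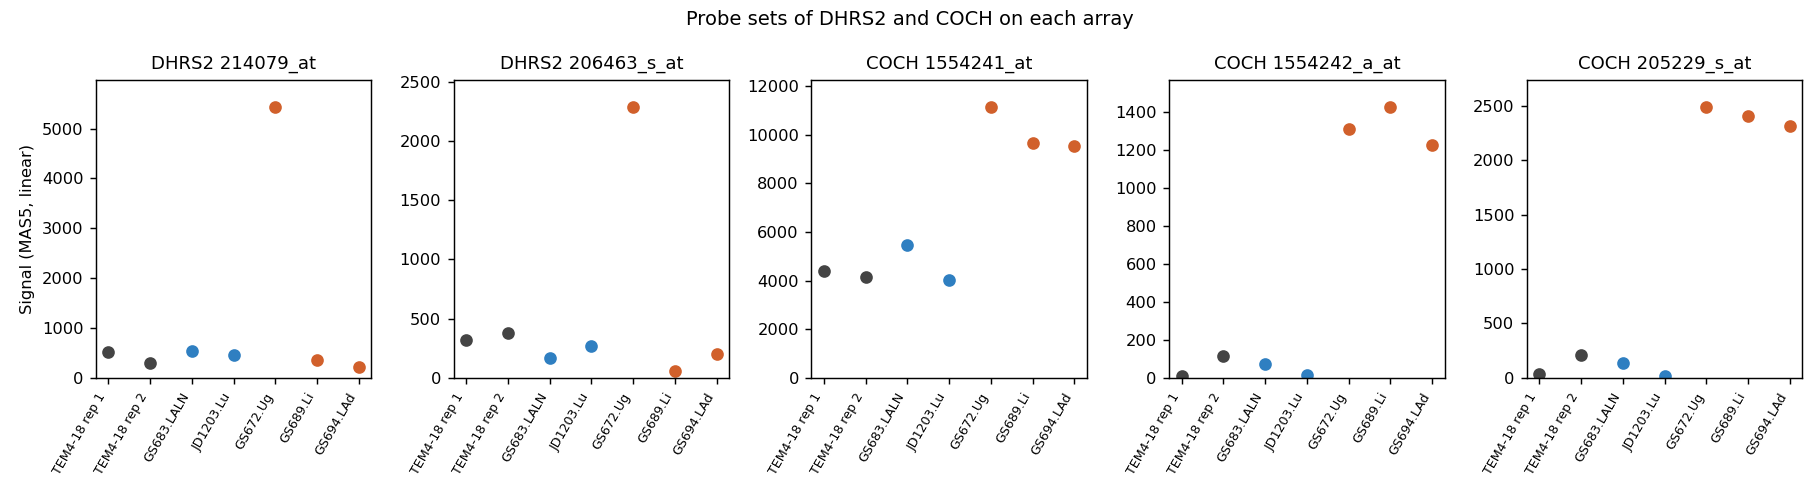
MAS5 signal (linear vertical axes from 0) of 2 probe sets of DHRS2 and 3 of COCH on each array (horizontal axis), 1 point per array, in black for TEM4-18, blue for the TEM4-18-descended and orange for the PC-3-descended sublines. Both DHRS2 probe sets are high in GS672.Ug alone, and all COCH probe sets are high in the 3 PC-3-descended sublines, from near background on the last 2.

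The sublines grown from TEM4-18 were not used to choose the genes, although their comparison shares the TEM4-18 arrays. The median difference from TEM4-18 over the 35 genes was 0.10 (22 higher and 13 lower) beside 0.01 over all genes. Within groups, the median log2 signal of the 35 genes on an array had an SD of 0.15, which is not an SD of the median difference. Without JD1203.Lu the median difference was -0.04 and without GS683.LALN 0.21. By limma 0 of the 35 passed an adjusted p under 0.05, against 0.0661% of all genes, and this held without JD1203.Lu and without GS683.LALN. At an unadjusted p under 0.05 there were 3, against 9.68% of all genes, which is a share near the background. These were STXBP6, higher by 1.26 ± 0.40 (SE) with an adjusted p of 0.376, REC8, by 0.98 ± 0.35 (SE) with 0.43, and DCAF11, by 0.63 ± 0.24 (SE) with 0.458. Without JD1203.Lu they were 1.09, 0.71 and 0.44, with limma adjusted p of 0.494, 0.604 and 0.638. A second DCAF11 probe set above the filter read 710 and 624 in TEM4-18, 655 in GS683.LALN and 671 in JD1203.Lu. With its probe sets averaged, DCAF11 was higher by 0.31, with a limma adjusted p of 0.706. RNF31 was 1.22 ± 0.66 (SE) above TEM4-18 with an adjusted p of 0.595, and 0.44 above it without JD1203.Lu. The 4 genes at least 2-fold higher in JD1203.Lu were SLC7A8, RNF31, REC8 and STXBP6. The last was also the gene that was 2-fold higher in GS683.LALN. On that array SLC22A17 and PRKD1, both of low signal, were at least 2-fold lower, and the share of all genes 2-fold lower was not counted.

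Differences among the PC-3-descended sublines were not the contrast that chose the genes. GS689.Li and GS694.LAd together were set against GS672.Ug, which is 1 array and is assumed to vary like the other groups. The median over the 35 genes was -0.07 (16 higher and 19 lower) beside 0.01 over all genes. By limma 1 of the 35 was called, against 0.308% of all genes, and at an unadjusted p under 0.05 there were 3, against 13.8%. Under the assumption for GS672.Ug, the called gene was DHRS2, lower in the pair, with a log2 difference of -4.08 ± 0.42 (SE) with an adjusted p of 0.0176. Its second probe set read 2289 in GS672.Ug against 53.9 and 203 in the pair, 323 and 379 in TEM4-18, 167 in GS683.LALN and 264 in JD1203.Lu. The adjusted p of DHRS2 rose to 0.0704 and 0.0687 without the first or second TEM4-18 array, 0.184 without GS689.Li and 0.134 without GS694.LAd, while the difference stayed between -4.39 and -3.76. IRF9 was higher in the pair by 1.39 ± 0.31 (SE) with an adjusted p of 0.119, which became 0.00706 without GS683.LALN and 0.00733 without JD1203.Lu. THTPA, the third gene, was higher by 0.61 ± 0.25 (SE) with an adjusted p of 0.336.

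At the far end of the block the sign of the difference changed, though not for every gene beyond it. From NOVA1 to HEATR5A, a neighbour that is not listed, 8 of 8 tested genes were higher in the PC-3-descended sublines, with a median of 1.24. All of these but HEATR5A are listed genes, chosen on this contrast, so the count is a description. Of all genes tested, 55.3% were higher. HEATR5A read 1060.1 and 889.93 in TEM4-18, 1278 in GS683.LALN, 1155 in JD1203.Lu, 2461 in GS672.Ug, 2733 in GS694.LAd and 2709.7 in GS689.Li. The next tested gene, DTD2, differed by -0.48 ± 0.36 (SE). DTD2 read 5035 and 5624 in TEM4-18, 8392 in GS683.LALN, 2917 in JD1203.Lu, 4225.5 in GS672.Ug, 3735 in GS694.LAd and 3511 in GS689.Li. NUBPL, after it, was also below 0. Of the 15 tested genes after NUBPL, 12 were lower and 3 higher, with a median of -0.57 in the PC-3-descended and 0.37 in the TEM4-18-descended sublines, or 0.47 without JD1203.Lu. The nearest 5 of these were ARHGAP5-AS1 (0.45), ARHGAP5 (-0.80), AKAP6 (0.34), NPAS3 (0.11) and SPTSSA (-0.44). ARHGAP5, a RhoGAP, read 8941 and 9865 in TEM4-18, 12945 in GS683.LALN, 13717 in JD1203.Lu, 5659.7 in GS672.Ug, 4997 in GS694.LAd and 5486 in GS689.Li. The PC-3-descended arrays were thus the lowest, whereas they were the highest for most tested genes of the block. The TEM4-18-descended arrays lay above TEM4-18.

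At the near end no such turn was seen. The 15 tested genes before SLC7A8 had a median of 0.35 with 13 higher, and all 46 before it a median of 0.32, beside 0.26 for the 417 other tested genes of chromosome 14. The nearest 5 were CEBPE (1.28), C14orf119 (1.00), ACIN1 (0.15), CDH24 (-0.09) and PSMB5 (0.25). C14orf119 read 9078 and 9233 in TEM4-18, 9728 in GS683.LALN, 10260 in JD1203.Lu, 17311 in GS672.Ug, 19477 in GS694.LAd and 18274 in GS689.Li, so that its groups lay apart as those of the listed genes did. CEBPE was dim, with 18.9 and 192 in the TEM4-18 duplicates. Inside the interval, 10 tested genes that are not listed had a median of 0.23, with 7 higher.

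The partners of these genes elsewhere in the genome were taken from 16 lists made for their roles, and the listed genes themselves were left out. PSMA3, PSMA6, PSMB5, DHRS7 and IFI27 in them also lie on chromosome 14. Of 27 tested interferon genes, which IRF9 serves through ISGF3, 22 were higher in the PC-3-descended sublines, with a median of 0.35. By limma 5 rose, against 2.29% of all genes, and 0 fell. OASL, an antiviral protein, rose by 2.27 ± 0.42 (SE) with an adjusted p of 0.0223, ISG20, an exonuclease, by 2.05 ± 0.21 (SE) with 0.00225, and IFI44 by 1.76 ± 0.35 (SE) with 0.0297. The others were IFIT2 (1.33, adjusted p 0.0265) and IFIT1 (0.88, adjusted p 0.0273). The ISG20 call ended only without the second TEM4-18 array (adjusted p 0.0505). Leaving out either TEM4-18 array or GS694.LAd ended the calls of OASL, IFI44, IFIT1 and IFIT2, and leaving out GS689.Li those of OASL and IFIT1. With the JD549.Ki pair averaged into 1 array, the limma adjusted p was 0.0678 for OASL, 0.058 for IFI44 and 0.0761 for IFIT1, which ended these calls, and 0.0143 for ISG20 and 0.0346 for IFIT2. Over all 16 alternatives the limma adjusted p reached 0.24 for OASL, 0.286 for IFI44, 0.274 for IFIT1 and 0.24 for IFIT2. The same list had a median of 0.37 in the TEM4-18-descended sublines, where 0 of 27 were called, and of 0.15 without JD1203.Lu.

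The partners of PSME1 and PSME2 were divided. Of 10 tested genes for other proteasome activators, the immunoproteasome and peptide loading, 4 were higher and 6 lower, with a median of -0.15. TAP2, a peptide transporter, fell by 1.18 on the log2 scale with an adjusted p of 0.0444, which 8 of 16 alternatives, those without a TEM4-18 array, GS689.Li or GS694.LAd or with the last 2 averaged (0.139) among them, took above 0.05, up to 0.309, and 0.999% of all genes were called lower. PSMB8, an immunoproteasome subunit, read 2077 and 2018 in TEM4-18, 1961 in GS683.LALN, 3603 in JD1203.Lu, 1794 in GS672.Ug, 256 in GS694.LAd and 72.3 in GS689.Li. Its difference of -2.37 ± 0.90 (SE) did not pass (adjusted p 0.216), and the low values were those of the JD549.Ki pair, in which IRF9 was highest. The 13 constitutive proteasome subunits had a median of -0.04 with 0 called.

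Calls in the other lists were few and are not read as a trait of the lists. There was 1 among 9 tested genes of the ER membrane complex and 1 among 6 of phosphoenolpyruvate and serine metabolism, both higher. Among 10 short-chain dehydrogenases 1 was called, lower. Of all genes, 2.29% were called higher and 0.999% lower. EMC10, of the complex that holds EMC9, rose by 0.90 ± 0.16 (SE) with an adjusted p of 0.0212, and PSPH, of serine synthesis, by 1.70 ± 0.19 (SE) with 0.0032. DHRS7, a short-chain dehydrogenase of chromosome 14, fell by 0.81 on the log2 scale with 0.0223. The PSPH call ended in 2 of 16 alternatives, without the second TEM4-18 array (limma adjusted p 0.0752) and with its probe sets averaged (0.146). The EMC10 and DHRS7 calls ended in 5 and 6, up to 0.234 and 0.227, among them without either TEM4-18 array, without GS694.LAd, without GS689.Li, and with that pair averaged (0.087 and 0.0852). For NEDD8 conjugation 0 of 14 tested genes were called, with a median of -0.11, for shelterin 0 of 5 with 0.07, for necroptosis 0 of 6 with 0.15, and for LUBAC 0 of 6 with 0.08. The AP-1 and AP-4 adaptors had 0 of 10 called, ESCRT-III 0 of 11, cohesin 0 of 9, RAB prenylation 0 of 2, STRIPAK 0 of 12 and the BCL2 family 0 of 10, with medians from -0.12 to 0.13.

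**Figure D5:**
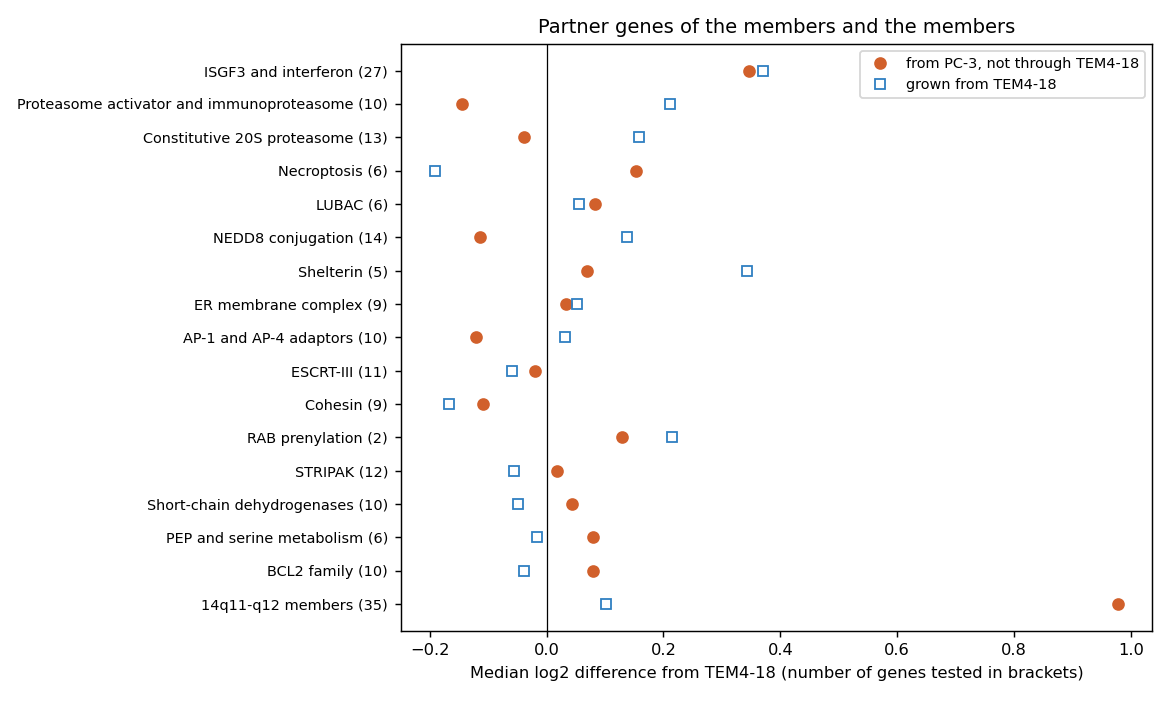
Median log2 difference from TEM4-18 (horizontal axis) over each list of partner genes and over the tested 14q11-q12 genes (vertical axis, number tested in brackets), filled circles for the PC-3-descended and open squares for the TEM4-18-descended sublines. The partner lists lie between -0.15 and 0.35 in the PC-3-descended sublines, and the chromosome 14 block, whose genes were chosen on this contrast, lies at 0.98.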

How the data were processed

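The deposited values are intensities made by the authors with MAS5, per the submitters' processing notes; the MAS5 version and a genome build are not given in the sources used here. There were 54675 probe sets, of which 41097 have 1 gene symbol in the platform annotation, 1801 several and 11777 none, with 62 controls. An offset of 46.942 (the 20th percentile) was added before log2. Probe sets with a mean log2 value at or above the 40th percentile were kept, and the set with the highest mean stood for a gene, giving 13618 genes, of which 13601 were placed in RefSeq gene order (GRCh38.p14). Limma 3.58.1 in R 4.3.3 (lmFit, eBayes with trend, 2-sided) was fitted to all 7 arrays as 3 groups, and as 4 to separate GS672.Ug, with Benjamini-Hochberg adjustment over all genes. The fits were tested on simulated data. The labels do not give separate cultures as replicates, and p-values measure only the spread between these arrays. Tables and figures used Python 3.11.15, pandas 2.3.3, numpy 2.4.6 and matplotlib 3.10.9.

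The members and lists were chosen with earlier results of these data known. All 47 genes were to be named, with every array's signal for those named by role, for the 3 largest and 3 smallest differences and for those passing a test that the choice had not used, besides the 5 nearest neighbours on each side and up to 3 genes of each partner list by size. HEATR5A, DTD2 and the further interferon genes were named after their values were seen. Alternatives were the offset, the filter, the scaling, the probe set rule, probe sets that may cross-hybridise, averaging GS689.Li with GS694.LAd, and leaving out each array. The alternatives for calls among the listed genes and among partners were added after seeing the data.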

Additional observations from a re-analysis of the deposited data

Results flagged for a closer look

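In 4 genes every PC-3-descended array lay above both TEM4-18 arrays while both TEM4-18-descended arrays lay below both of them. The share of all genes with this pattern was not counted, and its first part is what the genes were chosen for. PSME1 differed from TEM4-18 by -0.17 in the TEM4-18-descended and 0.64 in the PC-3-descended sublines, IPO4 by -0.33 and 0.54, NEDD8 by -0.059 and 0.89, and G2E3 by -0.058 and 0.66, on the log2 scale. Without JD1203.Lu the first values were -0.10 for PSME1, -0.19 for IPO4, -0.035 for NEDD8 and -0.047 for G2E3. The difference between the lineages was not tested, since the first contrast chose the genes. For PSME1, NEDD8 and G2E3 the lower values were within the SE of that contrast.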

How the results depend on the processing

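Of 553 recomputed differences of the 35 tested genes between the PC-3-descended sublines and TEM4-18, 526 moved by less than the spread within groups, 26 moved further and 1 reversed: NOP9, to -0.016 after median centring. The median over these genes moved to 0.78 after median centring. In no other alternative did it move by more than the SD within groups of their median log2 signal on an array. The count of all genes called in that contrast was 448 and ran from 31 (without the second TEM4-18 array) to 925 (without GS672.Ug) when an array was left out, and was 145 with GS689.Li and GS694.LAd averaged. For the TEM4-18-descended sublines the 9 calls ran from 2 (without either TEM4-18 array) to 142 (without GS683.LALN; 34 without JD1203.Lu). For the JD549.Ki pair against GS672.Ug the 42 calls became 22 with no filter and ran from 0 (without GS689.Li or GS694.LAd) to 1010 (without JD1203.Lu), and the listed genes called from 0 to 2. The cause was not tested. The listed genes called for the TEM4-18-descended sublines stayed at 0 in every alternative run. No paired analysis was possible because the sublines are single arrays of different lines.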
